A study of Mus musculus with 6 samples.

Results

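The genes described here are the extracellular metalloproteases of the ADAM, ADAMTS and MMP families with their inhibitors, the 4 TIMPs and Reck, in mouse neural stem progenitor cells given PTN. They were chosen by gene symbol, with earlier results of these data known. The symbols matched 86 of the 22322 genes in the deposited table, 81 of them proteases or protease-like genes and 5 inhibitors. RNA was sequenced 24 h after PTN or PBS, with 3 libraries in each group, the PBS group being called Control. All cells are labelled wild-type, and PTN is read here as pleiotrophin, a secreted heparin-binding growth factor, since the labels give the abbreviation only. The sources used here do not give the amount of PTN or the age and number of animals. No label says whether replicates were separate cultures, so p-values measure the spread between these libraries, which may be technical.

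ADAM proteins are membrane-anchored, and those with a working zinc site release the outer parts of other surface proteins, a step called shedding. ADAMTS enzymes are secreted and cut matrix proteins, among them the lecticans, the large proteoglycans of brain matrix. MMPs are secreted or membrane-bound enzymes that cut collagens, fibronectin and other matrix and surface proteins. TIMPs bind the active site of MMPs and, in part, of ADAM and ADAMTS enzymes, and Reck is a membrane-anchored inhibitor. The table's own annotation gives a metallopeptidase term to all 81 proteases and protease-like genes, including ADAM11, ADAM22, ADAM23 and the ADAMTS-like proteins, which are known as catalytically inactive. It gives a metalloendopeptidase inhibitor term to the 5 inhibitors.

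Totals were 19267764 to 26341745 expected counts per library. Summed over the 8 marker genes of neural stem and progenitor cells, levels were 5749 to 6598 CPM (counts relative to the library total, scaled between libraries) in Control and 7625 to 8941 CPM in PTN. Of the 8 only Vim was called, higher in PTN, at 3381 to 3527 CPM in Control and 4978 to 5439 CPM in PTN. The others overlapped between groups. The 7 microglial markers summed to 1.99 to 3.86 CPM in Control and 2.7 to 2.99 CPM in PTN. Among 6 astrocyte markers Gfap and Aldoc were called lower and 0 higher. The sum of the 6 was 7065 to 7415 CPM in Control but 3062, 5883 and 3279 CPM in PTN 1, PTN 2 and PTN 3. In this sum PTN 2 lay apart from the other PTN libraries. Slc1a3 went the other way without a call, at 1482 to 1762 CPM in Control and 2059 to 2217 CPM in PTN. So did S100b, at 2.39 to 3.21 and 3.73 to 4.77 CPM, while Aqp4 and Gja1 overlapped between groups. The 5 mural cell markers summed to 27.4 to 29.2 CPM in Control and 7.76 to 10.8 CPM in PTN, with Pdgfrb and Acta2 called lower. Rgs5, at 3.38 to 6.77 and 4.04 to 5.2 CPM, overlapped between groups, as did Abcc9. Kcnj8, too low to be tested, went the other way, at 0.085 to 0.115 and 0.156 to 0.535 CPM. The 5 endothelial markers summed to 37 to 44.3 CPM in Control and 11.3 to 25.8 CPM in PTN, nearly all of it from Flt1. The 6 fibroblast and meningeal markers summed to 90.6 to 114 CPM in Control and 17.5 to 39.5 CPM in PTN, or to 6.92 to 11 CPM and 3.08 to 6.24 CPM without Pdgfra, which is also an oligodendrocyte precursor marker. The sum of the 6 neuronal markers (252 to 382 CPM in Control and 298 to 502 CPM in PTN), most of it Map2, overlapped between groups. Tubb3 was lower in PTN without a call, at 26.9 to 32 CPM in Control and 10.3 to 21.6 CPM in PTN. Rbfox3 (0.229 to 0.608 and 0.815 to 1.25 CPM) and Snap25 (0.211 to 0.655 and 0.676 to 1.71 CPM) were higher without a call. Map2, Dcx and Stmn2 overlapped. The sum of the 5 ependymal and choroid plexus markers (72.7 to 91.8 CPM and 59.6 to 109 CPM), most of it Foxj1, also overlapped. The 6 oligodendrocyte lineage markers summed to 1047 to 1147 CPM in Control and 908 to 1040 CPM in PTN, most of it Olig1. Of these 6, Pdgfra and Cspg4 were called lower, and Sox10, at 33 to 40.2 CPM in Control and 4.21 to 20.1 CPM in PTN, was not called. No listed marker of any class was at 0 in all libraries, but the microglial genes Aif1 and Tmem119 were at 0 in all 3 PTN libraries. The part of these cell types in the results below was not tested. In bulk RNA, fewer cells of a type and less RNA per cell cannot be told apart.

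Which metalloproteases and inhibitors differed after PTN is the comparison made here. The inhibitor genes Timp1 and Timp2 rose to a little over double their Control level, and 4 ADAMTS genes of the clade that cuts proteoglycans rose, along with Adamts19, 2 ADAMTS-like genes and the sheddase gene Adam9. The membrane-type collagenase gene Mmp14 was the member that fell. Of the 86 members 18 were at 0 in all libraries, 18 reached a highest count of 1 to 9, and 48 had a count of 10 or more in 3 libraries. The whole-table filter left 47 of them for testing, Mmp23 having the counts but not passing it. Adamts19 and Adam5 reached 10 counts in all 3 PTN libraries but in 2 Control libraries, so the group in which they were higher sufficed to pass them. By edgeR's quasi-likelihood test, 10 of the 47 were called higher in PTN (adjusted p under 0.05) and 1 lower, or 21.3% and 2.13%. Among all 13161 tested genes 4.93% were called higher and 3.06% lower. With no filter the calls were the same 10 and 1, out of 68 members, against 3.95% and 2.6% of 17167 genes. The 3 PTN values lay wholly above the Control values in 22 members and wholly below in 3, or 46.8% and 6.38%, against 15.7% and 17.1% of all tested genes. The median log2 fold change was 0.37 over the 47 members and 0.03 over all tested genes. With any 1 Control library or PTN 1 left out, 5 members were called higher and 0 lower. These 5 were Timp1, Timp2, Adamts1, Adamts19 and Adamtsl3, and 1.51% to 2.66% of all tested genes were then called higher. Leaving out PTN 2 gave 9 higher and 2 lower, and leaving out PTN 3 gave 12 higher and 1 lower, beside 5.01% and 9.56% of all tested genes higher and 3.35% and 6.79% lower. With a trend on gene length removed from each library, 6 members were called higher and 1 lower, against 3.82% and 2.85% of all tested genes.

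**Figure D1:**
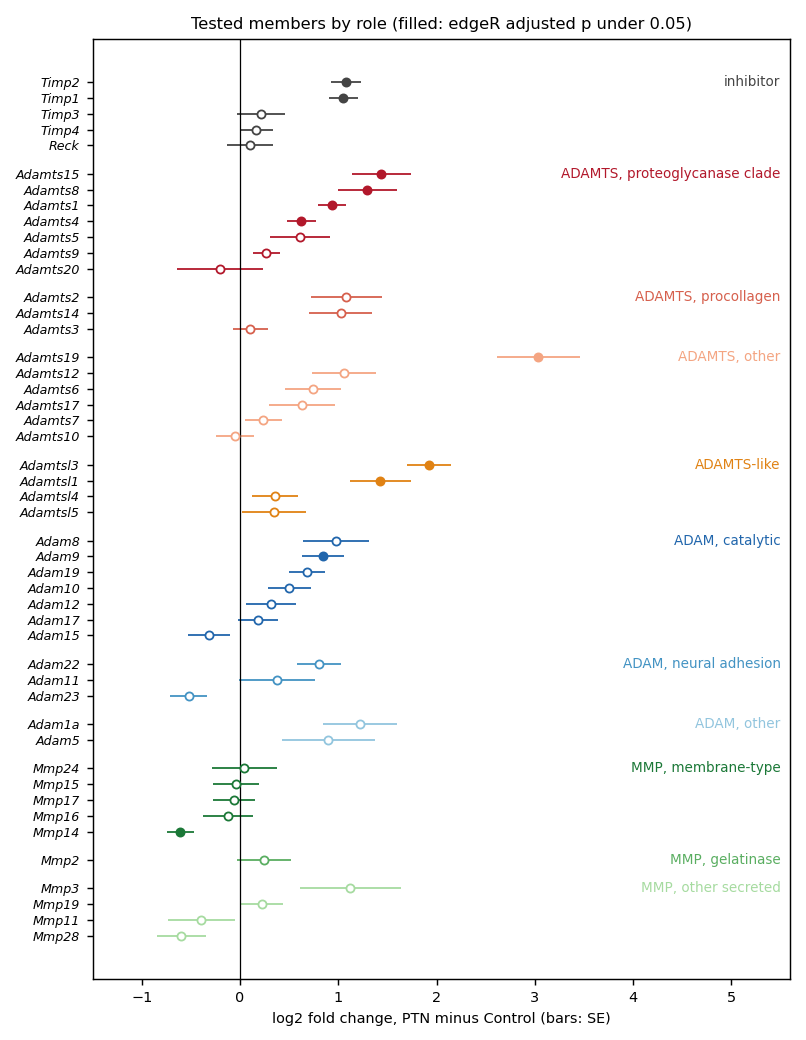
The log2 fold change of each of the 47 tested members (PTN minus Control, horizontal axis, bars are SE) is grouped by role, and filled points mark the 11 called members. The ADAMTS and ADAMTS-like points lie mostly to the right of 0, while the membrane-type MMPs lie near 0 except Mmp14.

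Among the inhibitors, Timp1 and Timp2 rose and Timp3, Timp4 and Reck were not called. Timp1, a secreted inhibitor known for its induction by cytokines and growth factors, was at 39.6, 35.1 and 33.3 CPM in Control 1, Control 2 and Control 3 and at 81.4, 67.3 and 75.1 CPM in PTN 1, PTN 2 and PTN 3. The groups were far apart, the lowest PTN value lying well above the highest Control value. The log2 fold change was 1.05 ± 0.15 (SE, n = 3 each, edgeR adjusted p = 0.00578), a 2.07-fold rise. Timp2, which both inhibits MMPs and serves as a partner of MMP14 in the activation of pro-MMP2, was at 168, 149 and 157 CPM in Control and at 283, 369 and 350 CPM in PTN. Its groups did not overlap either, and the rise was 2.12-fold (log2 fold change 1.08 ± 0.15 SE, edgeR adjusted p = 0.00623). Both calls were kept without each single library, at 1.94-fold to 2.17-fold for Timp1 and 2-fold to 2.28-fold for Timp2. In those refits the adjusted p reached at most 0.0477 and 0.048.

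Timp3, the inhibitor that stays bound to the matrix, was at 78.9, 97.1 and 80.5 CPM in Control and 88.4, 139 and 70 CPM in PTN, with overlapping groups (edgeR adjusted p = 0.579). Its PTN 2 value stood above the rest, and without PTN 2 the log2 fold change was -0.11. Timp4 averaged 50.5 ± 5.01 and 56.6 ± 9.6 CPM in Control and PTN, with SD of 3 libraries (edgeR adjusted p = 0.527). Reck was low, at 3.47 ± 0.58 and 3.74 ± 0.22 CPM (edgeR adjusted p = 0.78). Of the 4 TIMP genes 3 lie within or overlap synapsin genes on the opposite strand. In the GENCODE M21 annotation, exons of Timp3 overlap Syn3 and those of Timp4 overlap Syn2, while Timp1 lies within Syn1 without exon overlap. The sources used here do not say whether the counting used strand, so reads from the shared exons of Timp3 and Syn3 or of Timp4 and Syn2 cannot be told apart. Syn1, at mean levels of 21 and 26.6 CPM, was not called (edgeR adjusted p = 0.206).

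The promoters of Timp1, Timp2, Adamts1 and Mmp14 are shown because these are the 4 of highest level among the 5 called members with a promoter entry in the RefSeq table (build GRCm38.p6, from 250 bases before to 50 after the start site, 5′ to 3′). No source used here gives the build of the deposited counts. Capitals mark GC boxes (GGGCGG or CCGCCC) and TATA boxes (TATAAA or TTTATA), motifs that were chosen after the data were seen.
Timp1, chrX:20869916-20870215, plus strand: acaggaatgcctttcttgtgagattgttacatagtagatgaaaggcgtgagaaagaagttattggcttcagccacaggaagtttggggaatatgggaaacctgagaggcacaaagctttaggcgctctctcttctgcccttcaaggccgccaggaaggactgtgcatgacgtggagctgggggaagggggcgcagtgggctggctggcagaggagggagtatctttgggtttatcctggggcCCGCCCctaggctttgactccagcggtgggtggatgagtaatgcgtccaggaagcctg
Timp2, chr11:118355362-118355661, minus strand: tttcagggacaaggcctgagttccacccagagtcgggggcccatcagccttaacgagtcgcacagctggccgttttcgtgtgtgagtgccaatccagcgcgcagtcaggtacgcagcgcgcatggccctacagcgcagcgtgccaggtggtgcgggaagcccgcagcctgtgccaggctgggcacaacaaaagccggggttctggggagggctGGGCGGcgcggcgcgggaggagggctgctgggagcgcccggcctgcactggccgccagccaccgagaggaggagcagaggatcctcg
Adamts1, chr16:85803064-85803363, minus strand: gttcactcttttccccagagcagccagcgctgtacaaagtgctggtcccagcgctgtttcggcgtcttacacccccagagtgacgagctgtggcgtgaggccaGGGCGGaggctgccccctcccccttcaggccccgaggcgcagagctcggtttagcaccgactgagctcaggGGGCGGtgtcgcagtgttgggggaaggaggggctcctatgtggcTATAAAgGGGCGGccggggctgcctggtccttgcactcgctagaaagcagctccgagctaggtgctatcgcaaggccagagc
Mmp14, chr14:54431348-54431647, plus strand: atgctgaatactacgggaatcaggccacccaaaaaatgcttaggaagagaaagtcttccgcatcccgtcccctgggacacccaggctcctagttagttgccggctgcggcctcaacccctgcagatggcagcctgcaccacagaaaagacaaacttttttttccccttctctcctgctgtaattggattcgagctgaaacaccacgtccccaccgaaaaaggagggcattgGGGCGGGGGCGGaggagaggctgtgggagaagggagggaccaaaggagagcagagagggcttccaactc
A GC box stood in each of these 4 sequences and in that of Adamtsl3, the fifth called member with an entry. It stood in 35.7% of all 32851 promoters of the table and in 66.7% of the 27 promoters of tested members without a call. A TATA box was found in Adamts1 alone of the 5, and in 13.6% of all promoters. Neither the AP-1 motif TGANTCA nor the ETS motif (CCGGAA or TTCCGG) had an exact match in these 5 windows, while 7.81% and 14.9% of all promoters hold them. Near matches were not counted, and the Timp1 window holds TGAGTAA, which differs from the AP-1 pattern in a single letter. Absence of an exact match therefore does not show that such sites are lacking.

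Set side by side on the deposited FPKM scale, which is per length, Timp1 and Timp2 were of about equal level and together made up most of the TIMP message. Timp1 was at 46, 40.3 and 38.7 FPKM in Control and 93.5, 78.1 and 86.3 FPKM in PTN, and Timp2 at 45.6, 40.2 and 42.5 FPKM and 75.6, 100 and 94.3 FPKM. The 4 TIMPs summed to 132, 119 and 116 FPKM in Control and to 212, 226 and 219 FPKM in PTN. The 81 proteases and protease-like genes summed to 490, 441 and 493 FPKM in Control and to 569, 491 and 592 FPKM in PTN. The TIMP sum was therefore larger in each PTN library than in any Control library, whereas the protease sums overlapped at PTN 2. The ratio of the TIMP sum to the protease sum was 0.269, 0.269 and 0.234 in Control and 0.372, 0.461 and 0.37 in PTN. Sums over chosen members carry no test here.

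**Figure D2:**
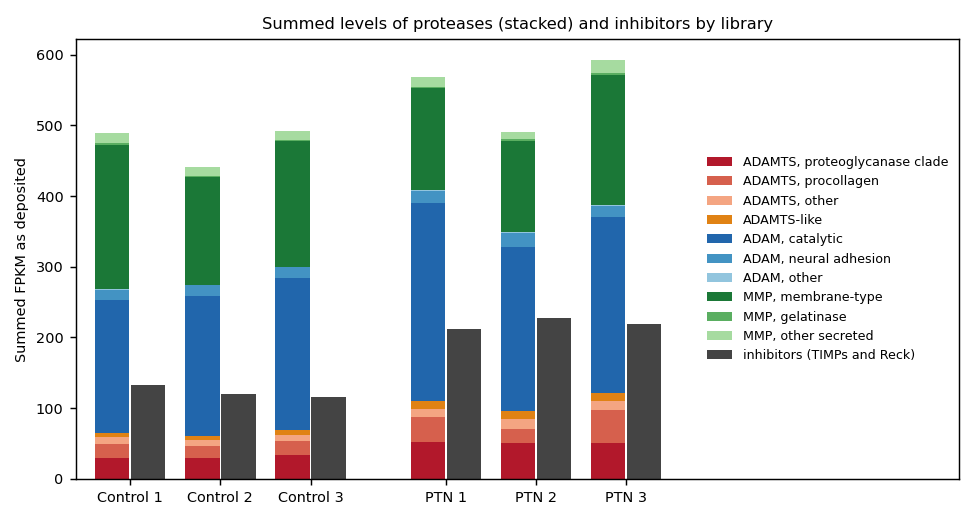
Summed FPKM as deposited (vertical axis) is shown for each of the 6 libraries, with proteases stacked by role and the inhibitors beside them. Inhibitor bars stand at 116 to 133 in Control and at 212 to 227 in PTN, and catalytic ADAMs and membrane-type MMPs make up most of each protease bar.

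The order of levels placed membrane-bound enzymes at the top. Mmp15, a membrane-type MMP, was the member of highest level in both groups, at 103 ± 21.6 FPKM in Control and 100.05 ± 28 FPKM in PTN (SD over 3 libraries). In Control it was followed by Mmp14 (65.7 FPKM), Adam15 (58.2 FPKM), Adam10 (49.2 FPKM), Timp2 (42.7 FPKM) and Timp1 (41.7 FPKM). In PTN it was followed by Timp2 (90 FPKM), Timp1 (86 FPKM), Adam10 (70.5 FPKM), Adam9 (53.1 FPKM), Adam15 (46.7 FPKM) and Mmp14 (43 FPKM). Mmp14 thus moved from the second place to the seventh, while the PTN values of Mmp15, Timp2 and Timp1 overlapped one another. The soluble gelatinase Mmp2 was at 1.48 FPKM in Control and 1.76 FPKM in PTN, and Mmp9 had 3 to 19 counts per library.

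**Figure D3:**
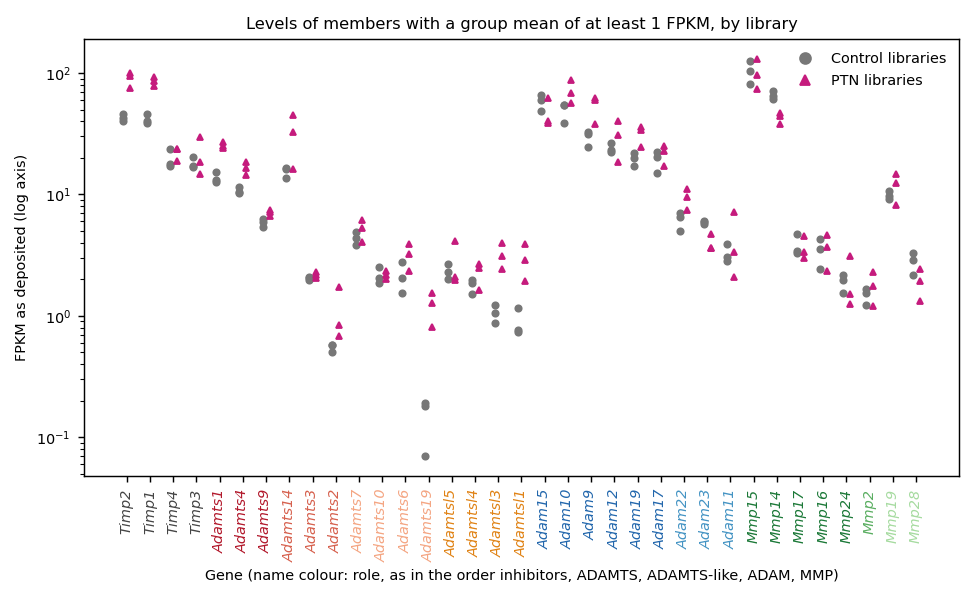
FPKM as deposited (vertical log axis) is shown for each library of every member with a group mean of at least 1 FPKM, circles for Control and triangles for PTN. Levels run from about 100 for Mmp15 to below 1 for Adamts19 in Control, and the Timp1, Timp2 and Mmp14 groups stand clear of each other.

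Of the 7 ADAMTS genes of the proteoglycanase clade, which are known for cutting aggrecan, versican and related proteoglycans, all were tested, 4 rose and 0 fell. The PTN values of 6 of the 7 lay wholly above the Control values, and the median log2 fold change of the 7 was 0.62. Among all tested genes 15.7% lay wholly above Control, 4.93% were called higher and 3.06% lower. The same shares stand beside the counts of the smaller groups below. Adamts1 was at 56, 57.6 and 68.8 CPM in Control and at 113, 111 and 125 CPM in PTN. Every PTN library was well above every Control library, the rise being 1.91-fold (log2 fold change 0.94 ± 0.15 SE, n = 3 each, edgeR adjusted p = 0.00768). The call was kept without each single library, with an adjusted p of at most 0.0489. Adamts4 was at 45.6, 45.4 and 50 CPM in Control and 81.8, 71.6 and 63.7 CPM in PTN, 1.54-fold higher (edgeR adjusted p = 0.0368). It was called without PTN 3 but not without any 1 of the other libraries (adjusted p 0.0632 to 0.148) or with the length trend removed (0.0723). The refit without PTN 3 drops the PTN value of Adamts4 nearest Control, so its call adds no support.

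Adamts8 and Adamts15 were low and rose to a like extent. Adamts15 was at 0.888, 0.917 and 1.31 CPM in Control and 3.03, 2.99 and 2.39 CPM in PTN, 2.7-fold higher (edgeR adjusted p = 0.0248). Without any 1 Control library or PTN 1 it was not called, with an adjusted p of up to 0.119. Adamts8 was at 1.9, 1.11 and 1.12 CPM in Control and 3.69, 3.25 and 3.22 CPM in PTN, 2.46-fold higher (edgeR adjusted p = 0.0362). The call held without PTN 3, its lowest PTN value by a narrow margin, which adds no support. It was lost without each of the other libraries, the adjusted p reaching 0.162, and with the length trend removed (0.063). An antisense gene overlaps exons of Adamts8. In neither did the groups overlap. These genes are next to each other on chromosome 9 of the RefSeq annotation, with 0 coding genes between them, as are Adamts1 and Adamts5 on chromosome 16. Adamts5, the other main aggrecan-cutting enzyme, was at 1.27, 2.29 and 2.39 CPM in Control and 3.07, 3.17 and 2.86 CPM in PTN. Its groups did not overlap, but it was not called (edgeR adjusted p = 0.228). Adamts9 was at 45.8 ± 3.7 and 55.1 ± 4.07 CPM (SD of 3 libraries, edgeR adjusted p = 0.245), and Adamts20 was at 0.52 to 1.25 CPM over the 6 libraries.

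Among the other ADAMTS genes, Adamts19, whose substrates are little known, had the largest fold of the 47 tested members. It was at 0.338, 0.956 and 0.983 CPM in Control and 7.99, 6.55 and 4.16 CPM in PTN, from 8, 25 and 21 counts to 206, 147 and 80 counts. All PTN values were several times the highest Control value, and the fold was 8.19 (edgeR adjusted p = 0.00583), with 6.31 to 9.54 when single libraries were left out. The related Adamts17 was at 1.53 ± 0.61 and 2.37 ± 0.15 CPM and was not called (edgeR adjusted p = 0.255). Adamts12 was at 1.99, 2.6 and 2.2 CPM in Control and 5.94, 5.48 and 2.7 CPM in PTN, with no overlap but no call (edgeR adjusted p = 0.0841), although DESeq2's Wald test called it. Without PTN 3, its lowest PTN value, Adamts12 was 2.52-fold higher (edgeR adjusted p = 0.0127). No other refit without a library called it. Since that refit drops the PTN value nearest Control, its p adds no support. Adamts6 was at 11.7 ± 3.95 and 19.5 ± 4.1 CPM (edgeR adjusted p = 0.139), while Adamts7 and Adamts10 had overlapping groups.

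The procollagen-processing enzymes Adamts2, Adamts3 and Adamts14, which trim the amino end of fibrillar procollagens, held 0 calls among 3, with 2 at an unadjusted p under 0.05, which DESeq2's Wald test called higher (Adamts2 and Adamts14). Adamts14 was at 83, 70.7 and 84.5 CPM in Control and 169, 83.2 and 233 CPM in PTN (edgeR adjusted p = 0.0849). Its PTN 2 value lay within the Control range and the other PTN values were far above it. Without PTN 2, Adamts14 was 2.53-fold higher (edgeR adjusted p = 0.00845). No other refit without a library called it, and this one drops the PTN value that lay within the Control range. Adamts2 showed the other pattern, at 3.13, 2.6 and 2.95 CPM in Control and 3.76, 9.94 and 4.68 CPM in PTN, with PTN 2 highest (edgeR adjusted p = 0.107). Adamts3 was at 6.64 ± 0.23 and 7.14 ± 0.38 CPM (SD of 3 libraries, edgeR adjusted p = 0.707).

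ADAMTS-like proteins share the matrix-binding parts of ADAMTS enzymes but lack the protease domain. Of 5 such genes 4 were tested, 2 rose and 0 fell. Adamtsl3 was at 5.24, 6.19 and 6.27 CPM in Control and 28.8, 17.6 and 20.5 CPM in PTN. The groups lay far apart, and the rise of 3.78-fold had the smallest p of the tested members (log2 fold change 1.92 ± 0.22 SE, n = 3 each, edgeR adjusted p = 0.00336). It was kept in the refits without each library, at 3.23-fold to 4.19-fold. Adamtsl1 was at 7.9, 5.58 and 4.82 CPM in Control and 14.7, 23.5 and 11 CPM in PTN, 2.69-fold higher (edgeR adjusted p = 0.0283). In refits without a Control library or PTN 1 the call was lost, the adjusted p reaching 0.129. With the length trend removed its adjusted p was 0.073. Adamtsl4 and Adamtsl5 had overlapping groups and were not called.

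**Figure D4:**
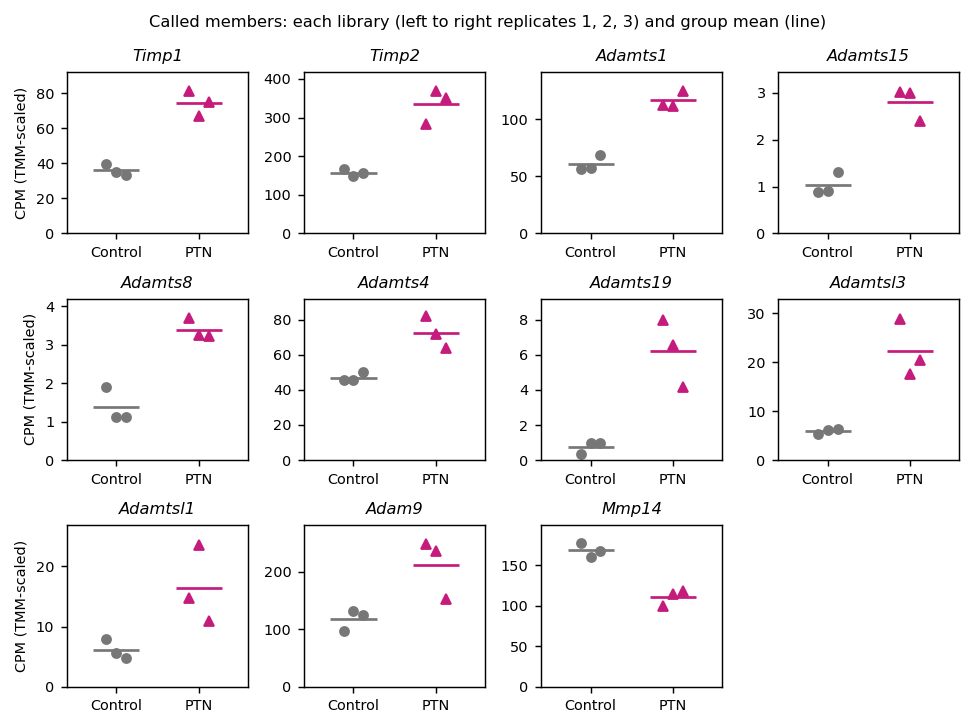
CPM scaled by TMM (vertical axes start at 0) is shown in each library for the 11 called members, circles for Control, triangles for PTN and lines for group means. In every panel the 3 PTN points lie wholly on 1 side of the 3 Control points, above them in 10 panels and below them for Mmp14.

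Of 10 ADAM genes listed as catalytic and broadly expressed, 7 were tested, 1 rose and 0 fell. Adam9, a sheddase, was at 97.2, 132 and 124 CPM in Control and 248, 236 and 152 CPM in PTN. The groups did not overlap, PTN 3 being the lowest of the PTN values, and the difference was 1.8-fold (edgeR adjusted p = 0.046). Adam9 was called without PTN 3, at 2.05-fold, but that refit drops the PTN value nearest Control and adds no support. It was not called without any 1 of the other libraries (adjusted p 0.101 to 0.177), with the length trend removed (0.0593) or by limma-voom. Adam9 ends a run of neighbouring genes on chromosome 8, in the order Adam18, Adam3, Adam5, Adam32 and Adam9 with 0 other coding genes between. Adam5 had 6, 24 and 17 counts in Control and 35, 31 and 18 in PTN, and Adam32 had 0, 1 and 0 counts in Control and 2, 6 and 3 in PTN. Adam5 was not called (edgeR adjusted p = 0.249) and Adam32 was too low to be tested. Adam18 was at 0 in all libraries, and Adam3 had 2 counts in Control 2 and 0 elsewhere. These neighbours were looked at after their values were seen.

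The main sheddases of Notch receptors and growth factor precursors were not called. Adam10 was at 154, 229 and 222 CPM in Control and 359, 267 and 231 CPM in PTN, the groups just clear of each other (log2 fold change 0.5 ± 0.22 SE, n = 3 each, edgeR adjusted p = 0.179). Adam17, which releases TNF and several EGF receptor ligands, was at 64.7, 98.5 and 89.4 CPM in Control and 109, 101 and 76.6 CPM in PTN (log2 fold change 0.18 ± 0.2 SE, edgeR adjusted p = 0.566). Its groups overlapped, and without Control 1 its log2 fold change was -0.002. Adam19 was at 127, 111 and 139 CPM in Control and 232, 155 and 216 CPM in PTN (edgeR adjusted p = 0.0588). Its lowest PTN value, in PTN 2, lay above all Control values, and without PTN 2 it was 1.78-fold higher (edgeR adjusted p = 0.0202). No other refit without a library called it, and this one drops the PTN value nearest Control. DESeq2's Wald test called Adam19 with all 6 libraries. Adam12 and Adam15 had overlapping groups, and Adam8 was at 0.828 ± 0.13 and 1.64 ± 0.33 CPM (edgeR adjusted p = 0.109).

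ADAM11, ADAM22 and ADAM23 lack a working zinc site and act in the nervous system as adhesion proteins and receptors for the LGI family at synapses. Adam22 was at 30.6, 45 and 44.7 CPM in Control and 90.2, 59.1 and 60.4 CPM in PTN, with no overlap (edgeR adjusted p = 0.0622). It was called by DESeq2's Wald test and, in edgeR, without PTN 3, at 1.86-fold (edgeR adjusted p = 0.0339). The other refits without a library did not call Adam22 (edgeR adjusted p up to 0.195). Adam23 was at 23.3, 23.2 and 23.4 CPM in Control and 13.3, 20 and 15.3 CPM in PTN, every PTN value being below the narrow Control range (edgeR adjusted p = 0.117). Without PTN 2, its PTN value nearest Control, it was 1.63-fold lower (edgeR adjusted p = 0.0423). The other refits without a library did not call Adam23 (edgeR adjusted p up to 0.293). Adam11 was at 19.4, 15.6 and 14.4 CPM in Control and 10.7, 36.3 and 17 CPM in PTN, and PTN 2 alone stood above Control. Among the other ADAM genes, mostly known from testis, 2 of 21 were tested, Adam1a and Adam5, and neither was called. Adam1a counts were in part fractional and its exons overlap Mapkapk5 on the same strand, so its values are uncertain.

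Of the 7 membrane-type MMP genes 5 were tested, 1 fell and 0 rose. Mmp14, the membrane-type collagenase that also activates pro-MMP2, was at 178, 161 and 168 CPM in Control and 99.7, 115 and 118 CPM in PTN. Both groups were tight and did not overlap. The fall was 1.52-fold (log2 fold change -0.61 ± 0.14 SE, n = 3 each, edgeR adjusted p = 0.0324). Leaving out any 1 Control library or PTN 1 ended the call, with an adjusted p of up to 0.126. Over all 6 such refits the fold ranged from 1.45 to 1.6. Mmp15 was at 637, 422 and 528 CPM in Control and 500.4, 378 and 667 CPM in PTN (edgeR adjusted p = 0.926), with overlapping groups. Mmp16, Mmp17 and Mmp24 had group means of 8.15 to 24.4 CPM and also overlapped. Mmp2 was at 5.11, 3.82 and 4.73 CPM in Control and 3.73, 7.04 and 5.46 CPM in PTN (edgeR adjusted p = 0.565).

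**Figure D5:**
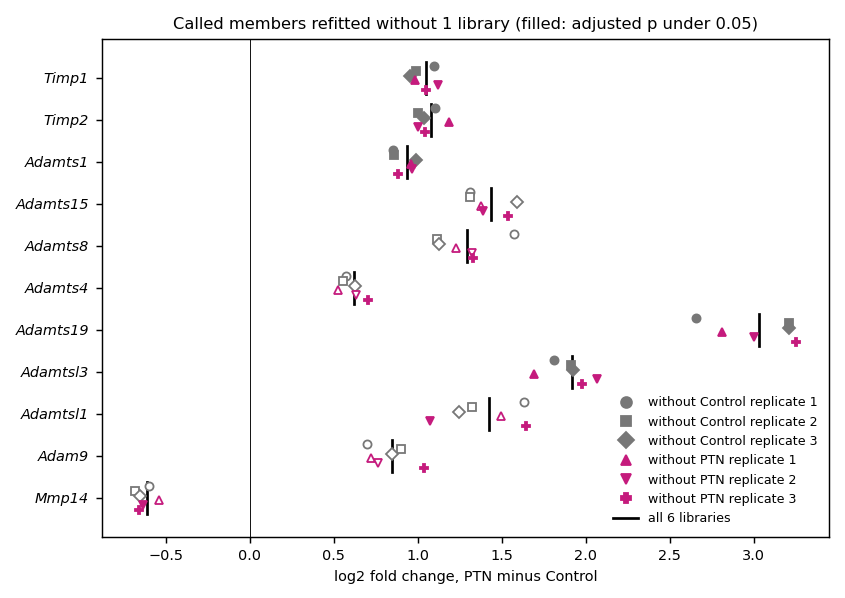
The log2 fold change of each called member (PTN minus Control, horizontal axis) is shown for refits without 1 library, filled where the adjusted p stayed under 0.05, beside a line for all 6 libraries. Timp1, Timp2, Adamts1, Adamts19 and Adamtsl3 were called in all 6 refits, and no point lies across 0 from its line.

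Of 14 other secreted MMP genes 4 were tested and 0 were called, with 1 at an unadjusted p under 0.05 and 0 called by DESeq2's Wald test or limma-voom. That one was Mmp28, at 9.97, 6.88 and 8.33 CPM in Control and 4, 5.84 and 6.87 CPM in PTN, with part fractional counts (edgeR adjusted p = 0.174). Its groups did not overlap, the highest PTN value lying just under the lowest Control value. The collagenases, stromelysins and matrilysin of the gene cluster on chromosome 9 were nearly silent. Its 10 genes follow one another with 0 other coding genes between them, and together they had 15, 10 and 13 counts in Control and 37, 8 and 28 in PTN. Without Mmp3 (stromelysin 1) the other 9 genes had 0 to 6 counts per library. Mmp3 itself had 11, 9 and 10 counts in Control and 33, 8 and 22 in PTN, with PTN 2 low (edgeR adjusted p = 0.201).

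The AP-1 windows of the cluster are shown because AP-1 is the textbook element of these promoters and 7 of these 8 genes had at most 5 counts in any library. Of the 10 cluster genes 8 hold the motif TGANTCA, in capitals, which is its own reverse complement as a pattern. Each line gives 10 bases on either side (RefSeq, GRCm38.p6, 5′ to 3′ on the gene's strand). The first base of the motif stood at position -35 from the start site in Mmp13 and at -95 in Mmp20, which are the nearest and the farthest.
Mmp13, chr9:7272469-7272495, plus strand: cccaaagtggTGACTCAtcactatcat
Mmp12, chr9:7347320-7347346, plus strand: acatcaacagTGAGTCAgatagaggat
Mmp1b, chr9:7388103-7388129, minus strand: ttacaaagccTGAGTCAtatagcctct
Mmp3, chr9:7445766-7445792, plus strand: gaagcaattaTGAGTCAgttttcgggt
Mmp1a, chr9:7464058-7464084, plus strand: ttgtcaaccaTGAGTCAcatagcctct
Mmp10, chr9:7502269-7502295, plus strand: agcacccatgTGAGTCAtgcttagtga
Mmp20, chr9:7628126-7628152, plus strand: atttgagacaTGAATCAtcacttacag
Mmp7, chr9:7692017-7692043, plus strand: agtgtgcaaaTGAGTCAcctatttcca
The motif is in 7.81% of all promoters of the table, and 2 of the 32 promoters of tested members hold it, those of Mmp3 and Adam19. In all, 55 of the 86 members and 30 of the 47 tested members had an entry in the promoter table. A match describes letters in this window only.

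Members differed in how much the libraries of a group spread. The coefficient of variation was larger in PTN than in Control for 35 of the 47 tested members. Its medians were 23.1% in PTN and 15.9% in Control, against 18.6% and 13.1% over all tested genes. The larger spread in PTN was thus not particular to these members, and the share of all tested genes was not counted. Over all genes PTN 3 differed more from PTN 1 and PTN 2 (chi-square per degree of freedom 98.4 and 107) than these differed from each other (67.3). Control replicates were unequal too. Control 1 differed from Control 2 and Control 3 at 70.8 and 35.6, and the last pair differed at 12.4. The members below were picked for how far PTN 2 lay from the other PTN libraries. Adam11, Adamts2, Adamts20 and Mmp24 were 2.62, 2.35, 2.27 and 2.22 times as high in PTN 2 as in the mean of PTN 1 and PTN 3. Mmp3, Adamts14 and Adam12 went the other way, the mean of PTN 1 and PTN 3 being 3.4, 2.41 and 1.94 times the PTN 2 value. Astrocyte markers were also highest in PTN 2 among the PTN libraries, as given above, and the part of that in these members was not tested. Without overlap between groups but also without a call, Adam1a, Adam5, Adam8, Adam10, Adam19, Adam22, Adamts2, Adamts5, Adamts6, Adamts9, Adamts12 and Adamts17 were higher in PTN, and Adam23 and Mmp28 lower.

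The genes around these enzymes were taken from 5 lists, chosen with earlier results of these data known. The count of each list is to be read beside all tested genes, of which 4.93% were called higher and 3.06% lower. Of 15 tested lecticans, link proteins and other matrix substrates, 1 rose and 3 fell, and the median log2 fold change was -0.04. Fn1, which encodes fibronectin, was at 91.3, 79.6 and 98.9 CPM in Control and 39.2, 34.9 and 49.6 CPM in PTN, 2.18-fold lower (edgeR adjusted p = 0.00759). Tnc, the glycoprotein tenascin-C of the stem cell niche, was at 452, 352 and 442 CPM in Control and 1073, 576 and 1332 CPM in PTN, 2.39-fold higher (edgeR adjusted p = 0.0324). Tnc was not called without any 1 Control library or PTN 1, the adjusted p reaching 0.109. With the length trend removed its adjusted p was 0.116. The small proteoglycan gene Bgn fell from a mean of 1.96 ± 0.06 to one of 0.526 ± 0.25 CPM with SD over 3 libraries (edgeR adjusted p = 0.0297), and the link protein gene Hapln1 from 0.791 ± 0.15 to 0.132 ± 0.12 CPM (edgeR adjusted p = 0.0341). Both of these low genes lost the call without any 1 Control library or PTN 1, with adjusted p up to 0.1 for Bgn and 0.124 for Hapln1. The fold of Hapln1 was between 4.58 and 11.1 in such refits. Of the lecticans that the ADAMTS enzymes cut, Ncan, Bcan and Vcan were not called, and the aggrecan gene Acan was not among the tested genes. Ncan was at 1846 ± 150 and 1799.8 ± 249 CPM, Bcan at 575 ± 88.3 and 450 ± 111 CPM and Vcan at 75.7 ± 20.4 and 127 ± 48.4 CPM (edgeR adjusted p = 0.896, 0.295 and 0.17).

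Of 33 tested genes for proteins known to be shed by ADAM10 or ADAM17, 7 rose and 1 fell, with a median log2 fold change of 0.36. Over all tested genes 4.93% rose and 3.06% fell, with a median of 0.03. The 4 of smallest p all rose. The adhesion molecule gene Vcam1 was 2.66-fold higher (edgeR adjusted p = 0.00515) and the interleukin-6 receptor gene Il6ra 2.47-fold, its means being 6.06 ± 0.76 and 15 ± 2.39 CPM (edgeR adjusted p = 0.00701). The neural adhesion gene Chl1 was 2.69-fold higher (edgeR adjusted p = 0.0146) and the hyaluronan receptor gene Cd44 1.65-fold (edgeR adjusted p = 0.0276), the last of which was lost without any 1 Control library or PTN 1 (up to 0.105). The gene that fell was Epha4, an ephrin receptor, 1.89-fold lower (edgeR adjusted p = 0.0372), named after its values were seen. Among 14 tested regulators of ADAM10 and ADAM17, 2 rose and 2 fell, with a median of -0.01. Tspan17, a tetraspanin partner of ADAM10, was at 6.04, 4.78 and 5.15 CPM in Control and 14.1, 25.9 and 14.8 CPM in PTN, 3.43-fold higher (edgeR adjusted p = 0.00691). Tspan33, another such tetraspanin, was 2.29-fold lower, at 4.09 ± 0.38 and 1.78 ± 0.2 CPM (edgeR adjusted p = 0.0229). The proprotein convertase gene Pcsk6 was 2.06-fold lower (edgeR adjusted p = 0.0351). Tspan33 and Pcsk6 lost the call without any 1 Control library or PTN 1, with adjusted p up to 0.102 and 0.123. Rhbdf2, which encodes the ADAM17 cofactor iRhom2, was 1.96-fold higher, at 3.05 ± 0.4 and 5.98 ± 1.14 CPM (edgeR adjusted p = 0.0427). Rhbdf2 kept the call without PTN 3 and lost it without each of the other libraries (up to 0.182), with the length trend removed (0.0722) and with upper-quartile factors.

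In the plasminogen system, whose protease plasmin can activate pro-MMPs, 1 of 9 tested genes rose and 0 fell. This was S100a10, which encodes a surface partner of plasminogen, at 43.2 ± 4.3 and 70.1 ± 10.5 CPM (SD of 3 libraries, edgeR adjusted p = 0.0342). Refits without a Control library or PTN 1 gave S100a10 an adjusted p of up to 0.171. The median log2 fold change of the 9 genes was 0.42. Of 10 tested genes for other metalloproteases and their helpers or inhibitors 0 rose and 1 fell, with a median of 0.02. Pcolce2, an enhancer of procollagen C-proteinase, was at 24.4, 22.1 and 19.9 CPM in Control and 6.48, 5.66 and 5.1 CPM in PTN. The groups were far apart, and the fall of 3.85-fold was kept without each single library (edgeR adjusted p = 0.00173).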

How the data were processed

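Expected counts per gene, as deposited by the authors, are estimated reads or fragments, not scaled between libraries. FPKM values, as deposited by the authors, are scaled to gene length and library size. Per the labels' protocols, RNA came from an RNeasy kit and 1.3 ug per library went into a SMARTER mRNA kit. The sources used here do not name the aligner, counter, build or annotation. Columns were matched to samples by group letter and replicate number, and 0 value columns were left unmatched.

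Counts were rounded, filtered with filterByExpr (13161 of 22322 genes), scaled by TMM and compared with edgeR's quasi-likelihood test (edgeR 4.0.16, R 4.3.3) over the whole table, with Benjamini-Hochberg adjustment. The test was checked on simulated data. CPM values are TMM-scaled, and SE is the log2 fold change divided by the square root of F. Common biological variation was 0.208. Counts were partly fractional in 11 members.

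The named genes were all called members, a set of best-known members, and up to 4 called genes of smallest p per list. The members and lists were chosen with earlier results of these data known. Alternatives were other scalings and filters, DESeq2 (1.42.0), limma-voom (limma 3.58.1), a replicate block, a length trend, other thresholds, and leaving out each library. The trend was a loess of log2 CPM on a length from count and FPKM (span 0.3). A planned protein motif search was not run.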

Additional observations from a re-analysis of the deposited data

How the results depend on the processing

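Members called higher (10) and lower (1) were within 1.5 times of these counts with DESeq2 size factors, upper-quartile factors, library totals and the 3 other filters, and with limma-voom (9 and 1), DESeq2's Wald test (15 and 1) and an adjusted p under 0.1 (15 and 1). With the length trend removed 6 were higher. Among changes of at least 1 on the log2 scale, 0 were lower and 7 higher. Leaving out single libraries gave 5 to 12 higher and 0 to 2 lower. A refit without a library has fewer residual degrees of freedom, so a call lost need not point to that library. With the replicate number as a block, 6 members were called higher and 0 lower. Adam9, Adamts4, Adamts8, Adamts15 and Mmp14 were then not called (adjusted p = 0.0691, 0.117, 0.0525, 0.0541 and 0.108), nor were S100a10, Tspan33, Rhbdf2 and Cd44 (0.071, 0.0602, 0.098 and 0.0708). Same-numbered libraries did not pair, their deviations from group means correlating at -0.51, 0.36 and -0.005 across genes, and no label says the number marks a shared source. The log2 fold change of Reck was -0.057 with the length trend removed. Without single libraries the sign turned for Adam17 (-0.00196 to 0.32), Reck (-0.056 to 0.18), Timp3 (-0.11 to 0.41) and Mmp15 (-0.27 to 0.14), none of them called, and the cause was not tested. Over all tested genes 649 were called higher and 403 lower, against 1134 and 774 by DESeq2's Wald test, 1089 and 824 at an adjusted p under 0.1, 454 and 272 with the block, 427 and 209 with the log2 threshold, and 201 to 1273 and 130 to 904 without single libraries. Depth limits the members with a highest count of 1 to 9, which were tested with no filter and gave 0 calls.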
